A study of Mus musculus with 8 samples.

Results

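Wnt ligands, their receptors and their secreted inhibitors were followed in CCE, an embryonic stem (ES) cell line from mouse strain 129/Sv, and in embryoid bodies, the aggregates in which such cells differentiate. Members were all genes whose platform symbol was Wnt, Fzd, Sfrp or Dkk followed by a number, together with Lrp5, Lrp6, Frzb, Wif1, Axin2, Lef1 and Tcf7, each read from probe sets annotated to exactly 1 gene. This gave 43 members with 83 probe sets, out of 18193 genes with such a probe set, and Tcf7 was not analysed here because no probe set of that kind was named for it. The members were 19 ligands, 12 receptors or co-receptors, 10 secreted inhibitors and 2 nuclear or feedback genes that are commonly read as targets, Axin2 and Lef1.

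The series addressed what the Polycomb protein Bmi1 does to blood development from ES cells, and measured expression on 8 Affymetrix arrays. There were 4 states: embryoid bodies at day 10 from cells labelled as transduced with a lentivirus carrying mouse Bmi1 cDNA (2 arrays), embryoid bodies at day 10 from empty vector cells (2 arrays), undifferentiated ES cells labelled Bmi1 (2 arrays), and control ES cells (1 untreated and 1 empty vector array). All cells were kept with leukemia inhibitory factor before differentiation, and transduced cells were sorted on eGFP after passage, per the labels, so the untreated array had neither virus nor sort. The labels do not say whether replicates were separate cultures or whether a transduced line was 1 clone, so p-values measure only how far these arrays lie apart, and that spread may be technical. The RNA came from whole cultures, so in every comparison fewer cells of a type and less RNA per cell cannot be told apart.

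Wnts are lipid-modified secreted proteins that bind a Frizzled receptor, and for the beta-catenin branch also the co-receptor Lrp5 or Lrp6. Binding stops the destruction complex around Axin from degrading beta-catenin, which then acts in the nucleus with Tcf/Lef factors. Other branches pass through Frizzleds and Ror or Ryk receptors to cell polarity and movement. Sfrps, Frzb and Wif1 bind Wnts outside the cell, whereas Dkk1 and Dkk2 bind Lrp5 and Lrp6. In the early embryo Wnt signals drive the primitive streak and mesoderm, and in mouse ES cell culture they favour self-renewal.

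Facts of the whole series bear on every value below. Values are log2 units made with RMA, a method that normalizes arrays to a shared distribution, and levels are read within a probe set only, since probe sets differ in brightness. The arrays fell into 3 sets of near-equal distributions, the replicate 1 embryoid bodies, the replicate 2 embryoid bodies and the 4 ES cell arrays, and the mean distance between sorted values was 0.00994 to 0.0325 log2 units within sets and 0.189 to 0.442 across them. Both embryoid body sets contained an array of each label, while stage and set cannot be told apart. The Bmi1 probe sets went against the labels: the brighter read 7.48 and 8.51 in embryoid bodies labelled Bmi1, with vector embryoid bodies at 9.35 and 9.67, and 5.68 and 6.28 in ES cells labelled Bmi1 against 7.41 and 7.74 in control ES cells. The other probe set differed by -1.59 and -1.58, and whether either lies in the transduced cDNA is not stated. Groups are therefore called by their labels, and each direction is that of the arrays so labelled. Differentiation markers followed the stage, with 7 of 7 pluripotency genes called lower and 5 of 5 mesenchyme and 5 of 5 endothelium genes called higher in vector embryoid bodies than in control ES cells, against 35.8% of all genes lower and 22.7% higher. Endoderm had 5 of 6, cardiac muscle 4 of 5, blood 4 of 5, trophoblast 2 of 4 and primitive streak 1 of 3 tested genes called higher, and neuroectoderm 2 higher and 1 lower of 5. The part of these cell types in the stage differences below was not tested.

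A gene was read from its brightest probe set and tested if it lay above the array median in at least 2 arrays, which left 12982 genes and 31 of the 43 members. The medians were 5.89 to 5.97 in embryoid bodies and 5.57 to 5.61 in ES cells. The 12 dim members were Wnt2b, Wnt3, Wnt5b, Wnt8a, Wnt8b, Wnt9b, Wnt10a, Wnt10b, Wnt16, Lrp5, Dkk4 and Wif1, with values of 2.70 to 5.84. Thus 9 of 19 ligands were dim, against 1 of 12 receptors and 2 of 10 secreted inhibitors. Of the tested members, 18 lay above the median on all 8 arrays. Another 9, namely Wnt1, Wnt2, Wnt5a, Wnt9a, Wnt11, Fzd4, Dkk1, Dkk2 and Frzb, did so in no ES cell array and entered the test through embryoid bodies alone, so that they had to differ between stages. Fzd9 alone among the tested members was above the median in no embryoid body array.

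**Figure D1:**
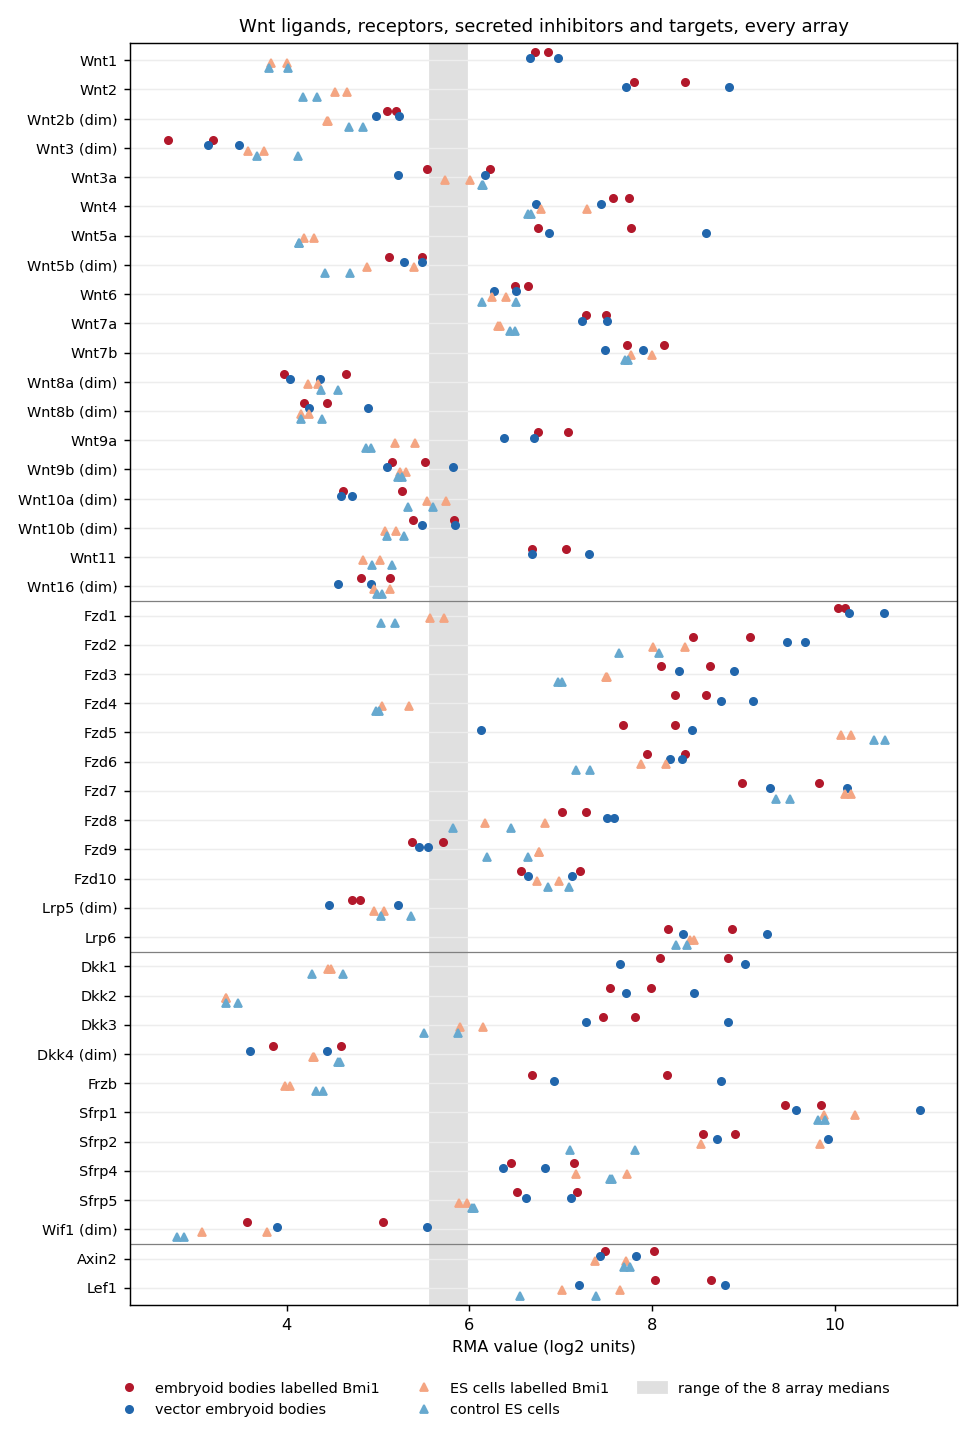
RMA value in log2 units (x axis) of each of the 43 members on each of the 8 arrays, with circles for embryoid bodies and triangles for ES cells, and the grey band marking the array medians of 5.57 to 5.97. The ligands Wnt1, Wnt2, Wnt5a, Wnt9a and Wnt11 lie right of the band in embryoid bodies and left of it in ES cells, and 12 members marked dim did not pass the filter.

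The ligands Wnt1, Wnt2, Wnt5a and Wnt11, the receptors Fzd1 and Fzd4 and the inhibitors Dkk1, Dkk2 and Frzb were higher in embryoid bodies than in ES cells, and the receptors Fzd5 and Fzd9 were lower. All the members named as higher except Fzd1 entered the test through embryoid bodies alone, so the filter set their direction. The counts of tested members called higher include them and support nothing, and counts with no filter are given beside them. By limma with Benjamini-Hochberg adjustment over the 12982 genes, 16 of 31 tested members were called at a threshold of 0.05 between embryoid bodies and ES cells labelled Bmi1, 14 higher and 2 lower, against 59.2% of all genes, 21.2% higher and 38.0% lower. With no filter it was 19 of 43, 15 higher and 4 lower, against 47.6% of all genes, 19.6% higher and 28.0% lower. Between vector embryoid bodies and control ES cells 21 of 31 were called, 18 higher and 3 lower, against 58.5% of all genes, 22.7% higher and 35.8% lower. With no filter 24 of 43 were called there, 20 higher and 4 lower, against 47.2% of all genes, 20.8% higher and 26.4% lower. The median difference over the 43 members was 0.25 log2 units in samples labelled Bmi1 (32 higher, 11 lower), where that over all 18193 genes was -0.06, and 0.48 in vector and control samples (30 higher, 13 lower), where that over all genes was -0.04. With the replicate number of the embryoid bodies as a block, 21 of 31 members were called in samples labelled Bmi1, against 74.4% of all genes, and 24 of 31 in vector and control samples, against 74.8%. The share of members called in either direction was thus near that of all genes, with no test of the list. The comparisons use different arrays but share the sets, so neither checks the other for the part that set may play, and their differences are given side by side.

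Of the 10 tested ligands, 6 were called higher after differentiation, the same 6 in samples labelled Bmi1 and in vector and control samples: Wnt1, Wnt2, Wnt5a, Wnt7a, Wnt9a and Wnt11. All of these but Wnt7a passed the filter through embryoid bodies alone, so the count of tested ligands supports nothing. With no filter 7 of 19 ligands were called higher and 2 lower in samples labelled Bmi1, against 19.6% and 28.0% of all genes, and 7 higher and 1 lower in vector and control samples, against 20.8% and 26.4%. Wnt2, a ligand of heart, lung and placental development, read 8.37 and 7.80 in embryoid bodies labelled Bmi1, 8.84 and 7.72 in vector embryoid bodies, 4.66 and 4.53 in ES cells labelled Bmi1, and 4.33 and 4.18 in control ES cells. The stages lay far apart and the embryoid body groups overlapped. Its stage difference was 3.49 ± 0.37 (SE, n = 2 and 2 arrays, adjusted p = 4e-04), 11.2-fold, in samples labelled Bmi1, and 4.03 ± 0.37 (adjusted p = 0.00022), 16.3-fold, in vector and control samples. Wnt1, which patterns the midbrain, read 6.87 and 6.72 in embryoid bodies labelled Bmi1, 6.66 and 6.97 in vector embryoid bodies, 4.01 and 3.83 in ES cells labelled Bmi1, and 3.81 and 4.02 in control ES cells. Its arrays were tight within each stage, and the difference was 2.87 ± 0.19 (adjusted p = 7.7e-05) in samples labelled Bmi1 and 2.90 ± 0.19 (adjusted p = 6e-05) in vector and control samples.

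Wnt5a, the best known ligand of the branches without beta-catenin, was dim in ES cells and spread widely in embryoid bodies. It read 6.76 and 7.77 in embryoid bodies labelled Bmi1, 6.87 and 8.59 in vector embryoid bodies, 4.19 and 4.30 in ES cells labelled Bmi1, and 4.13 and 4.14 in control ES cells. The stage difference was 3.01 ± 0.55 (SE, n = 2 and 2 arrays, adjusted p = 0.0031) in samples labelled Bmi1 and 3.60 ± 0.55 (adjusted p = 0.0015) in vector and control samples. Wnt11, a ligand of cell movement and heart formation, rose by 1.94 ± 0.25 (adjusted p = 0.00085) in samples labelled Bmi1 and 1.95 ± 0.25 (adjusted p = 0.00077) in vector and control samples. Wnt9a rose by 1.62 ± 0.20 (adjusted p = 0.00071) in samples labelled Bmi1, where its other probe set differed by -0.19, and by 1.65 ± 0.20 (adjusted p = 0.00061) in vector and control samples, where its other probe set differed by 0.04. Wnt7a rose by 1.06 ± 0.18 (adjusted p = 0.0021) in samples labelled Bmi1 and by 0.90 ± 0.18 (adjusted p = 0.0042) in vector and control samples. Its 2 other probe sets lay between -0.41 and 0.10 in samples labelled Bmi1 and between -0.18 and 0.36 in vector and control samples, where median centring of the arrays left 0.57 for the brightest. The calls of Wnt9a and Wnt7a thus rest on a single probe set each. Wnt1, Wnt2 and Wnt11 have only 1 probe set each, so no other could be compared. The same holds for Wnt3a, Dkk2, Fzd9, Sfrp2 and Sfrp4 among the tested members.

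The remaining tested ligands were measured at both stages with small differences. Wnt4, a ligand of kidney and gonad, differed by 0.62 ± 0.28 in samples labelled Bmi1 (adjusted p = 0.09, and 0.027 with the embryoid body replicate as a block) and by 0.42 in vector and control samples (not called). In samples labelled Bmi1 it was also called by the mean of its probe sets (0.92, adjusted p = 0.0021), with the block over numbered arrays (adjusted p = 0.018) and without either vector array (adjusted p = 0.03), and was 0.37 without ES cell replicate 1. Wnt3a, a ligand used to maintain ES cells in culture, read 6.23 and 5.54 in embryoid bodies labelled Bmi1, 6.17 and 5.22 in vector embryoid bodies, 5.73 and 6.01 in ES cells labelled Bmi1, and 6.15 and 6.14 in control ES cells. Its stage difference was -0.45 ± 0.35 in vector and control samples (adjusted p = 0.3, and 0.022 with the block) and became 0.027 without vector replicate 2 and -0.92 (adjusted p = 0.04) without vector replicate 1. Wnt6 and Wnt7b differed by at most 0.25 log2 units in either comparison by their brightest probe sets. The other probe set of Wnt6 gave 0.53 in samples labelled Bmi1 and 0.335 in vector and control samples. That of Wnt7b gave 0.26 and 0.15 in the same order.

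Of the 11 tested receptors, 3 were called higher and 2 lower in embryoid bodies labelled Bmi1, against 21.2% and 38.0% of all genes. In vector embryoid bodies 6 were called higher and 2 lower, against 22.7% and 35.8% of all genes. Fzd4 passed the filter through embryoid bodies alone, so the filter fixed its direction. Fzd9 passed through ES cells alone, which favoured a fall but did not require it, since the array medians were higher in embryoid bodies. In vector and control samples the largest rise and the largest fall among the tested members were those of Fzd1 and Fzd5. Fzd1 read 10.04 and 10.11 in embryoid bodies labelled Bmi1, 10.54 and 10.16 in vector embryoid bodies, 5.57 and 5.72 in ES cells labelled Bmi1, and 5.19 and 5.04 in control ES cells. It was 21.5-fold higher in embryoid bodies than ES cells labelled Bmi1 (log2 difference 4.43 ± 0.19, adjusted p = 3e-05) and 37.7-fold higher in vector embryoid bodies than in control ES cells (5.24 ± 0.19, adjusted p = 1.5e-05). Its other probe set differed by 2.77 in samples labelled Bmi1 and by 3.23 in vector and control samples. Fzd4, which also serves as the receptor of Norrin in vessel growth, read 8.25 and 8.59 in embryoid bodies labelled Bmi1, 9.11 and 8.76 in vector embryoid bodies, 5.34 and 5.05 in ES cells labelled Bmi1, and 5.02 and 4.98 in control ES cells. Every embryoid body array lay above every ES cell array. That separation follows from its place above the median in every embryoid body array and in no ES cell array, so it adds nothing. The difference was 3.22 ± 0.21 (adjusted p = 7.7e-05) in samples labelled Bmi1 and 3.93 ± 0.21 (adjusted p = 3.3e-05) in vector and control samples, and the mean of its 3 probe sets gave 1.64 in samples labelled Bmi1 and 2.22 in vector and control samples.

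Fzd5 went the other way. It read 7.68 and 8.26 in embryoid bodies labelled Bmi1, 6.13 and 8.44 in vector embryoid bodies, 10.17 and 10.06 in ES cells labelled Bmi1, and 10.43 and 10.55 in control ES cells. All embryoid body arrays lay below all ES cell arrays, but the vector replicates were 2.31 log2 units apart. Fzd5 fell by 2.15 ± 0.65 log2 units (adjusted p = 0.024) in embryoid bodies labelled Bmi1 and by 3.21 ± 0.65 (adjusted p = 0.0047) in vector embryoid bodies, and its other probe set differed by -2.06 in samples labelled Bmi1 and by -2.99 in vector and control samples. The call in samples labelled Bmi1 was lost with quantile normalization (adjusted p = 0.079), without embryoid body replicate 1 (adjusted p = 0.12) and without either ES cell array (adjusted p = 0.098 and 0.084). In vector and control samples the value was -2.06 without vector replicate 1. Fzd9 was the other Frizzled that fell, by 1.22 ± 0.21 (adjusted p = 0.0026) in embryoid bodies labelled Bmi1 and by 0.92 ± 0.21 (adjusted p = 0.0081) in vector embryoid bodies, where it lost its call without the untreated array (-0.70, adjusted p = 0.069).

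Smaller rises were seen in Fzd2, Fzd3, Fzd6 and Fzd8. In samples labelled Bmi1 Fzd2 differed by 0.58, Fzd8 by 0.65 and Fzd6 by 0.13, not called, with Fzd2 called under the block (SE 0.20, adjusted p = 0.035), with quantile normalization (0.96, adjusted p = 0.01), with the mean of its probe sets (adjusted p = 0.045) and without embryoid body replicate 1 (0.89, adjusted p = 0.042). Without embryoid body replicate 2 the Fzd2 value was 0.27. Between vector embryoid bodies and control ES cells Fzd2 rose by 1.71 ± 0.27 (adjusted p = 0.0017), Fzd8 by 1.41 ± 0.29 (adjusted p = 0.0055) and Fzd6 by 1.02 ± 0.20 (adjusted p = 0.0045). Fzd3, which with Fzd6 acts in planar polarity, gave 0.86 ± 0.26 (adjusted p = 0.023) in samples labelled Bmi1 and 1.61 ± 0.26 (adjusted p = 0.0019) in vector and control samples. Its 5 other probe sets lay between -1.31 and 0.47 in samples labelled Bmi1 and between -0.68 and 0.29 in vector and control samples. The mean over its probe sets was -0.12 in samples labelled Bmi1 and 0.24 (adjusted p = 0.19) in vector and control samples, so its direction depends on the probe set, and in samples labelled Bmi1 the call was also lost with median centring (0.52) and without embryoid body replicate 2 or either ES cell array labelled Bmi1 (adjusted p = 0.11, 0.098 and 0.092). Fzd7, linked in human ES cells to the undifferentiated state, differed by -0.74 ± 0.35 in samples labelled Bmi1 (adjusted p = 0.11, and 0.00089 with the block), where its other probe set differed by 0.26, and by 0.28 in vector and control samples (not called). The value labelled Bmi1 was -0.315 (adjusted p = 0.49) without embryoid body replicate 1 and -1.16 (adjusted p = 0.032) without replicate 2. It was also called with median centring (-1.08, adjusted p = 0.037), array weights (adjusted p = 0.045), the block over 6 numbered arrays (adjusted p = 0.033) and without either vector array (adjusted p = 0.049). Fzd10 differed by at most 0.10 log2 units in size by its brightest probe set, and its other probe set gave 0.28 in samples labelled Bmi1 and -0.01 in vector and control samples. The co-receptor Lrp6 differed by 0.48 ± 0.34 in vector and control samples (adjusted p = 0.26, and 0.0079 with the block), while its other probe set differed by -1.41 and the mean of both by -0.465. The brightest probe set of Lrp6 gave 0.94 (adjusted p = 0.033) without vector replicate 1, 0.022 without vector replicate 2, and 0.82 (adjusted p = 0.038) with quantile normalization.

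Of the 8 tested secreted inhibitors, 5 were called higher and 0 lower in embryoid bodies labelled Bmi1, against 21.2% and 38.0% of all genes. In vector embryoid bodies 6 were called higher and 1 lower, against 22.7% and 35.8% of all genes. Dkk1, Dkk2 and Frzb passed the filter through embryoid bodies alone, so the count of tested inhibitors supports nothing. Dkk2 read 7.54 and 7.99 in embryoid bodies labelled Bmi1, 8.47 and 7.72 in vector embryoid bodies, 3.34 and 3.34 in ES cells labelled Bmi1, and 3.47 and 3.34 in control ES cells. ES cells thus lay near the bottom of the arrays' range, so that the size of the difference is not measured on that side, and no fold is given. The fitted difference was 4.43 ± 0.28 (adjusted p = 6.8e-05) in samples labelled Bmi1 and 4.69 ± 0.28 (adjusted p = 4.7e-05) in vector and control samples. Dkk1, which blocks Lrp5 and Lrp6 and is itself a common Wnt target, read 8.09 and 8.83 in embryoid bodies labelled Bmi1, 7.65 and 9.01 in vector embryoid bodies, 4.49 and 4.45 in ES cells labelled Bmi1, and 4.28 and 4.61 in control ES cells. The stages did not overlap, which follows from its place above the median in embryoid bodies alone. Dkk1 rose by 3.99 ± 0.45 (adjusted p = 0.00048) in samples labelled Bmi1 and by 3.88 ± 0.45 (adjusted p = 0.00049) in vector and control samples. Frzb, a secreted Frizzled-related protein of cartilage, read 6.69 and 8.17 in embryoid bodies labelled Bmi1, 6.93 and 8.76 in vector embryoid bodies, 3.98 and 4.04 in ES cells labelled Bmi1, and 4.40 and 4.32 in control ES cells. Its embryoid body replicates were over 1 log2 unit apart in both groups, and it rose by 3.42 ± 0.64 (adjusted p = 0.0035) in samples labelled Bmi1 and by 3.49 ± 0.64 (adjusted p = 0.0032) in vector and control samples.

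Dkk3, a divergent Dickkopf protein, rose by 1.61 ± 0.46 (adjusted p = 0.02) in embryoid bodies labelled Bmi1 and by 2.36 ± 0.46 (adjusted p = 0.0041) in vector embryoid bodies. The call in samples labelled Bmi1 was lost with quantile normalization (adjusted p = 0.079) and without embryoid body replicate 1 or either ES cell array labelled Bmi1 (adjusted p = 0.097, 0.066 and 0.097). Among the Sfrps, which soak up Wnts through a Frizzled-like domain, Sfrp2 differed by -0.45 in samples labelled Bmi1 (not called) and rose in vector embryoid bodies by 1.86 ± 0.54 (adjusted p = 0.02). The rise of Sfrp2 lost its call without vector replicate 1 (1.25, adjusted p = 0.092) or the empty vector ES cell array (1.50, adjusted p = 0.12). Sfrp5 rose by 0.92 ± 0.26 (adjusted p = 0.02) in samples labelled Bmi1 and by 0.82 ± 0.26 (adjusted p = 0.03) in vector and control samples. Sfrp4 differed by -0.65 in samples labelled Bmi1 (adjusted p = 0.1, and 0.018 with the block, -0.99 without embryoid body replicate 1 with adjusted p = 0.044, and -0.30 without replicate 2) and fell by 0.95 ± 0.30 (adjusted p = 0.029) in vector embryoid bodies. Sfrp1 was measured at every stage and was not called in either comparison by its brightest probe set. That probe set differed by -0.40 in samples labelled Bmi1 and by 0.40 in vector and control samples. Its 4 other probe sets lay between -0.53 and 0.72 in samples labelled Bmi1 and between 0.28 and 1.35 in vector and control samples.

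Sfrp4 and Sfrp5 were near the threshold. The Sfrp4 call was lost with array weights, with either control ES cell array left out and without vector replicate 2 (adjusted p = 0.065 to 0.11). The Sfrp5 calls were lost with quantile normalization or median centring (0.50 to 0.75 log2 units). In samples labelled Bmi1 the Sfrp5 call was also lost without embryoid body replicate 1 (0.59) or either ES cell array of that label, and in vector and control samples without vector replicate 1 or any 1 of the 4 ES cell arrays.

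The 2 genes read as pathway targets were not called between stages by the brightest probe set. Axin2, a negative feedback gene of the beta-catenin branch, read 7.49 and 8.02 in embryoid bodies labelled Bmi1, 7.43 and 7.83 in vector embryoid bodies, 7.72 and 7.38 in ES cells labelled Bmi1, and 7.76 and 7.70 in control ES cells. Values of the 2 stages overlapped, and the stage difference was 0.21 ± 0.25 (adjusted p = 0.5) in samples labelled Bmi1 and -0.10 ± 0.25 (adjusted p = 0.75) in vector and control samples. Its other probe set differed by 0.89 in samples labelled Bmi1 and by 0.97 in vector and control samples, and the mean of both by 0.55 (adjusted p = 0.018) in samples labelled Bmi1 and by 0.43 (adjusted p = 0.042) in vector and control samples. The sign for the brightest probe set turned with median centring (-0.14) and without embryoid body replicate 2 (-0.063) in samples labelled Bmi1, and without vector replicate 1 (0.10) in vector and control samples. Lef1, a nuclear partner of beta-catenin, read 8.04 and 8.64 in embryoid bodies labelled Bmi1, 7.20 and 8.80 in vector embryoid bodies, 7.65 and 7.02 in ES cells labelled Bmi1, and 7.39 and 6.55 in control ES cells. Its other probe set differed between stages by 0.03 in samples labelled Bmi1 and by 0.54 in vector and control samples. By the brightest, the stage difference of Lef1 was 1.01 ± 0.55 (adjusted p = 0.15, and 0.039 with the block) in samples labelled Bmi1 and 1.03 ± 0.55 (adjusted p = 0.15, and 0.036 with the block) in vector and control samples. It rested on single arrays: in vector and control samples leaving out vector replicate 1 gave 1.83 (adjusted p = 0.013), leaving out vector replicate 2 gave 0.23 and leaving out the empty vector ES cell array gave 0.61, and in samples labelled Bmi1 it was 0.69 to 1.32 over such omissions, with a call (adjusted p = 0.043) when either vector array was left out.

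**Figure D2:**
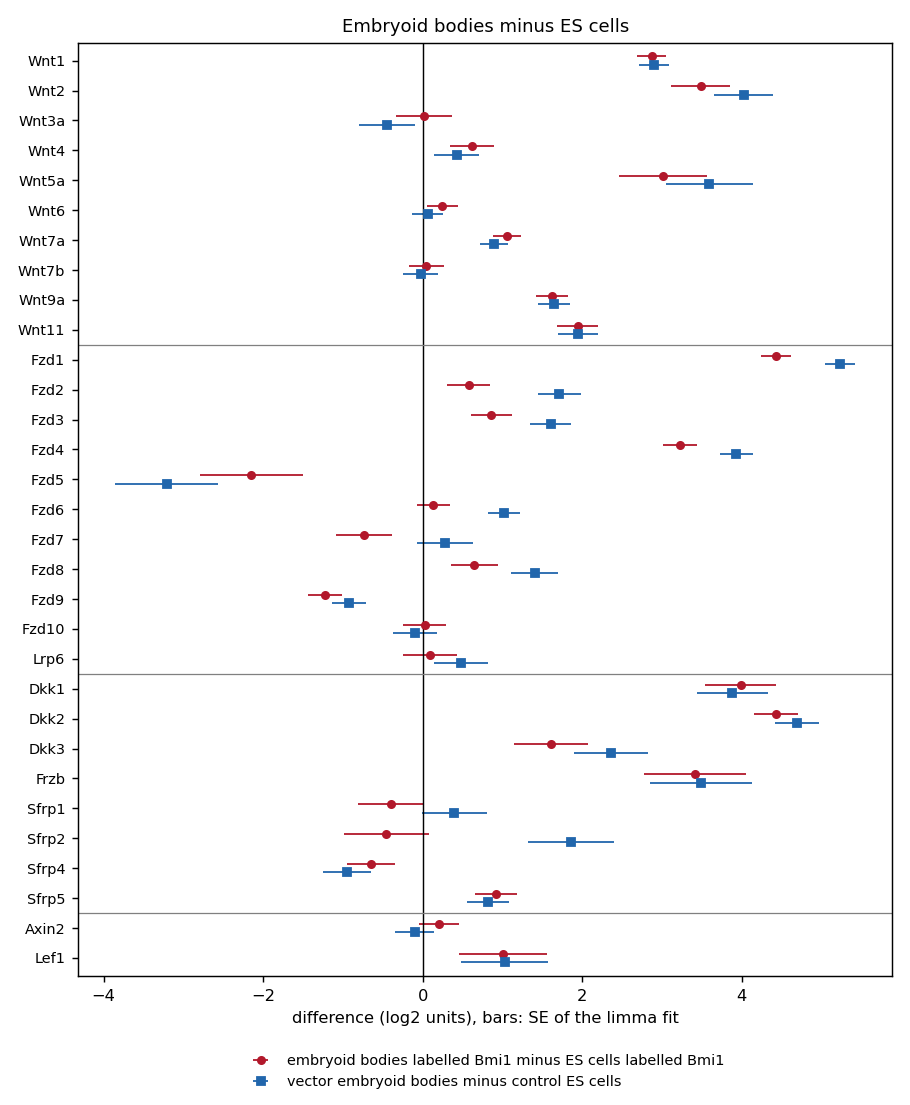
Difference between embryoid bodies and ES cells in log2 units (x axis) for the 31 tested members, with red circles for samples labelled Bmi1, blue squares for vector embryoid bodies minus control ES cells, and bars for the SE of the limma fit. Fzd1, Dkk2, Wnt2, Dkk1 and Fzd4 lie to the right, with Fzd1 at 4.43 in samples labelled Bmi1 and 5.24 in vector and control samples, and Fzd5 lies farthest left at -2.15 and -3.21 for the same pairs.

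Promoter sequence was examined for every member with a window, and a few windows are shown. RefSeq (GRCm38.p6) gave the 250 bases before the start for 29 of the 43 members, in 35 windows. A median of 20 CpG pairs stood in a member window, against 6 over all 32851 windows, and the median GC content was 66.4% against 52.4%. A form of the core that Tcf/Lef factors bind, CTTTGA on either strand (TCAAAG on the other), was present in 6 of 35 member windows (17.1%) and in 13.8% of all windows. Other forms of the core were not searched for. Windows of Fzd1, Dkk2, Fzd5 and Fzd7 are shown 5′ to 3′ on the gene's strand, with capitals marking CTTTGA or TCAAAG only. Fzd1 and Dkk2 had large fitted rises (the rank of Dkk2 is not measured, since its ES cell values lay near the floor). Fzd5 fell most. Fzd7 was called in ES cells under the block described below, and not between stages in the main fit. Wnt2, Fzd4 and Dkk1 also had large rises and are not shown, and of these only the Dkk1 window held a match.
Fzd1: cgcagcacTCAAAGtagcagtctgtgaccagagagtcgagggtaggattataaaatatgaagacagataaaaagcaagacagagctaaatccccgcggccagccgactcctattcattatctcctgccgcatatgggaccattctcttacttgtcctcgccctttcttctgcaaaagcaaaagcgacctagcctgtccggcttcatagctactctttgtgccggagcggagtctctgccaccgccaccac
Dkk2: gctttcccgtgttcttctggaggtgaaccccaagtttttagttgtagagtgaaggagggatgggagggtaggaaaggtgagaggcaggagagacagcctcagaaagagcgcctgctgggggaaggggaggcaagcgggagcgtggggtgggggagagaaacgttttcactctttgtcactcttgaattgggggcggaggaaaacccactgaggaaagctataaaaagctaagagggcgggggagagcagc
Fzd5: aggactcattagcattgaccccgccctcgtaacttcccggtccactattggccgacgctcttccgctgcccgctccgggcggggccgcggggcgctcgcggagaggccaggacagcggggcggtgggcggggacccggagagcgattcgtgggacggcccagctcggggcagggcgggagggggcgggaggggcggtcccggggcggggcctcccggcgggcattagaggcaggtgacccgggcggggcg
Fzd7: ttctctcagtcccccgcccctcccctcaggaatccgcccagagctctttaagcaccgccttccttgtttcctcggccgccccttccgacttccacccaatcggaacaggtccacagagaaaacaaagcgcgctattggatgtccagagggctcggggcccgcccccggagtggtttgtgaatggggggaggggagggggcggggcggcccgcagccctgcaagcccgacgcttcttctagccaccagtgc
The Fzd1 window at chr5:4758217-4758466 (minus strand) held TCAAAG 1 time and 12 CpG pairs. The windows of Dkk2 at chr3:132085042-132085291 (plus strand), Fzd5 at chr1:64737751-64738000 (minus strand) and Fzd7 at chr1:59481897-59482146 (plus strand) held neither CTTTGA nor TCAAAG, with 7, 32 and 17 CpG pairs. A match or its absence describes these letters only.

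Embryoid bodies labelled Bmi1 were then compared with vector embryoid bodies, and no Wnt component passed the test. Of 31 members, 0 were called by limma, against 0.139% of all genes, or 0 of 43 with no filter, against 0.0770%, and 2 (Fzd2 and Fzd4) had an unadjusted p under 0.05, against 7.06%. With the embryoid body replicate as a block, which takes out the difference between the array sets, 0 of 31 were called, against 2.09% of all genes. The arrays of the groups did not overlap for 6 of 31 members, Wnt4 and Wnt9a higher and Fzd1, Fzd2, Fzd4 and Fzd8 lower in embryoid bodies labelled Bmi1, against 25.2% of all genes, 10.8% higher and 14.4% lower. The sign was the same within both replicate sets for 16 of 31 members, against 61.7% of all genes. These shares were below those of all genes. Without vector replicate 2 the count was 1, Fzd5, which over all arrays differed by 0.69 ± 0.65 (adjusted p = 0.94), with 1.56 within the replicate 1 pair and -0.18 within the replicate 2 pair. The median difference was -0.11 over the tested members and -0.04 over all tested genes, with -0.28 over 11 receptors (3 higher, 8 lower), -0.37 over 8 secreted inhibitors (2 higher, 6 lower) and 0.10 over 10 ligands (6 higher, 4 lower).

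Fzd2 had the largest difference among members whose arrays did not overlap. It read 8.45 and 9.07 in embryoid bodies labelled Bmi1 and 9.47 and 9.68 in vector embryoid bodies, so that both arrays labelled Bmi1 lay below both vector arrays. The difference was -0.81 ± 0.27 (SE, n = 2 and 2 arrays, adjusted p = 0.52, and 0.094 with the block), with -1.02 in the replicate 1 pair and -0.60 in the replicate 2 pair, and -0.50 without embryoid body replicate 1 labelled Bmi1. Its 3 probe sets gave -0.81 to -0.86. Fzd4 read 8.25 and 8.59 in embryoid bodies labelled Bmi1 and 9.11 and 8.76 in vector embryoid bodies, a difference of -0.52 ± 0.21 (adjusted p = 0.68, and 0.19 with the block), with -0.86 and -0.17 within pairs and -0.34 without vector replicate 1.

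Fzd8 and Fzd1 differed by less. For Fzd8, a close relative of Fzd5, the values were 7.01 and 7.28 in embryoid bodies labelled Bmi1 and 7.50 and 7.59 in vector embryoid bodies, a difference of -0.40 ± 0.29 (adjusted p = 0.89), and its other probe set gave 0.16. For Fzd1 the difference was -0.28 ± 0.19 (adjusted p = 0.88), and it was -0.082 without vector replicate 1 and -0.47 without vector replicate 2. Leaving out embryoid body replicate 1 labelled Bmi1 gave -0.26 for Fzd8. Markers of some other cell types also stood apart between these groups, and over all tested genes 5548 of 12982 were higher. The mean of 5 endothelium genes was 7.04 and 7.46 in embryoid bodies labelled Bmi1 and 8.12 and 8.09 in vector embryoid bodies, with 0 of 5 higher. That of 5 cardiac genes was 9.31 and 9.59 in those labelled Bmi1 and 7.08 and 9.17 in those with vector, with 4 of 5 higher. The 6 neuroectoderm genes averaged 5.36 and 6.18 in embryoid bodies labelled Bmi1 and 6.41 and 7.35 in vector embryoid bodies, with 0 of 5 tested higher. The 4 trophoblast genes averaged 8.76 and 8.31 in those labelled Bmi1 and 7.67 and 7.77 in those with vector, with 3 of 4 higher. The 5 blood genes averaged 7.63 and 7.62 in those labelled Bmi1 and 8.29 and 7.99 in those with vector, with 2 of 5 higher. Mesenchyme had 3 of 5 genes higher, endoderm 2 of 6, pluripotency 3 of 7 and primitive streak 0 of 3 tested. In those lists the array means of the groups overlapped. None of the lists had a called gene, and their part in the values of the Frizzleds was not tested.

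On the ligand side Wnt4 read 7.58 and 7.75 in embryoid bodies labelled Bmi1 and 6.73 and 7.45 in vector embryoid bodies, a difference of 0.58 ± 0.28 (adjusted p = 0.75, and 0.18 with the block), and its other probe set gave 0.78. It was 0.22 without vector replicate 1 and 0.93 without vector replicate 2. Wnt9a read 7.08 and 6.75 in those labelled Bmi1 and 6.71 and 6.38 in those with vector, a difference of 0.37 ± 0.20 (adjusted p = 0.8, and 0.15 with the block), with 0.38 and 0.37 within pairs but -0.24 by its other probe set, and 0.21 without embryoid body replicate 1 labelled Bmi1 or without vector replicate 2. Both ligands lay higher on both arrays labelled Bmi1 without passing the test. Axin2 differed by 0.13 ± 0.25 and Lef1 by 0.34 ± 0.55 (both adjusted p = 1), Lef1 with 0.84 and -0.15 within pairs and -0.31 by its other probe set. The other probe set of Axin2 gave -0.24, and the sign turned without embryoid body replicate 2 labelled Bmi1 (-0.14) or without vector replicate 1 (-0.076), which also turned Lef1 (-0.46).

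**Figure D3:**
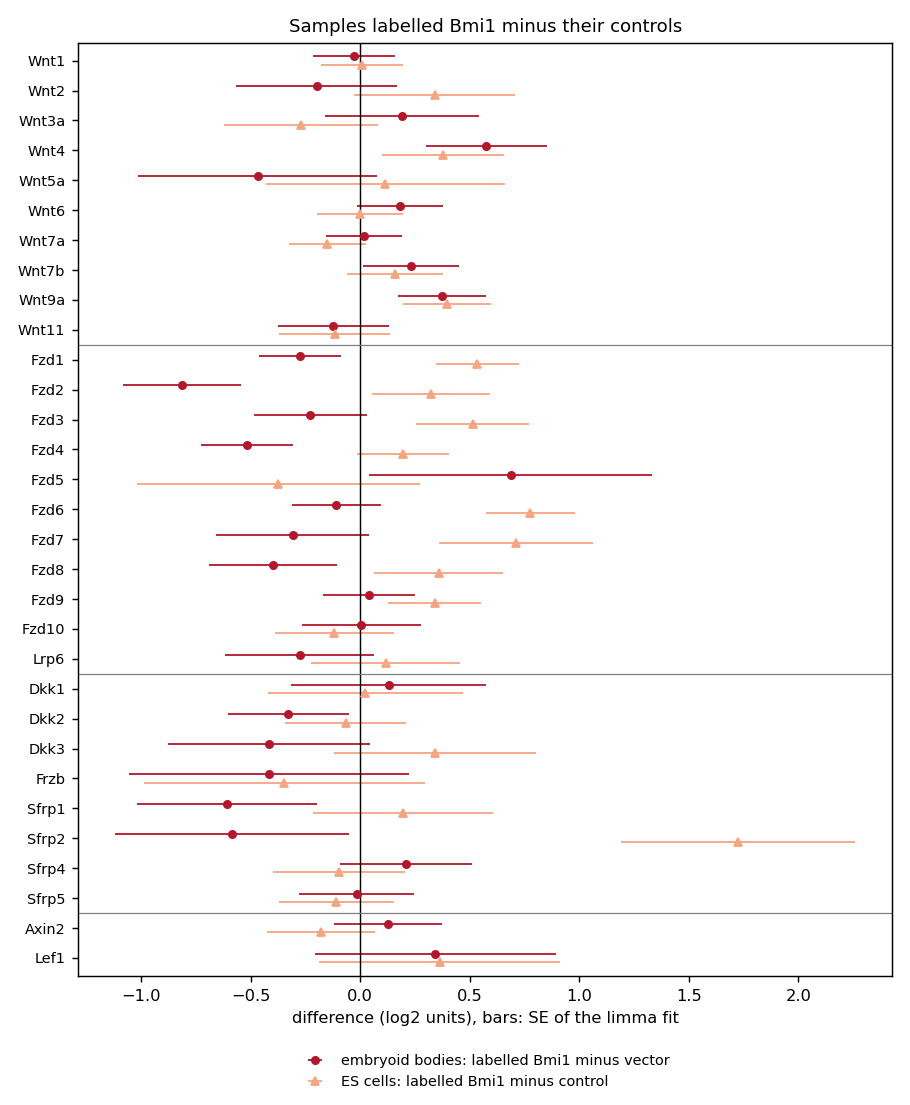
Difference between samples labelled Bmi1 and their controls in log2 units (x axis) for the 31 tested members, with circles for embryoid bodies, triangles for ES cells and bars for the SE of the limma fit. Most Frizzled circles lie left of 0 and most Frizzled triangles right of it, with Fzd2 at -0.81 in embryoid bodies and Sfrp2 at 1.73 in ES cells, and none was called.

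In ES cells labelled Bmi1, again no member passed the test against control ES cells. Of 31 members 0 were called, against 0.0462% of all genes, or 0 of 43 with no filter, against 0.0385%, and 3 (Fzd1, Fzd6 and Sfrp2) had an unadjusted p under 0.05, against 6.29%. The arrays did not overlap for 19 of 31 members, 14 higher and 5 lower, against 45.6% of all genes, 25.1% higher and 20.6% lower. The receptors had a median difference of 0.34 (9 higher, 2 lower), against 0.06 in ligands (7 higher, 3 lower), -0.02 in secreted inhibitors (4 higher, 4 lower) and 0.00 over all tested genes. Nothing particular to the list follows from a median without a test.

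Sfrp2 had the largest difference. It read 9.83 and 8.54 in ES cells labelled Bmi1 and 7.82 and 7.11 in control ES cells, where the untreated array was the higher, so the groups did not overlap but the replicates labelled Bmi1 were further apart than the nearest arrays of the groups. The difference was 1.73 ± 0.54 (SE, n = 2 and 2 arrays, adjusted p = 0.49, and 0.19 with the block), with 1.08 to 2.37 when single arrays were left out. Sfrp2 has only 1 probe set here. Fzd6 read 8.15 and 7.88 in ES cells labelled Bmi1 and 7.32 and 7.17 in control ES cells, a difference of 0.78 ± 0.20 (adjusted p = 0.37, and 0.06 with the block), while its 2 other probe sets gave 0.10 and 0.11.

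Fzd7 was the only member called under the block, which leaves the ES cell values as they are and lowers the spread shared by all arrays. It read 10.18 and 10.11 in ES cells labelled Bmi1 and 9.35 and 9.51 in control ES cells. The difference was 0.71 ± 0.35 without the block (adjusted p = 0.96) and 0.71 ± 0.11 with it (adjusted p = 0.041, where 1.66% of all genes were called), against an adjusted p of 0.42 with a block over all 6 numbered arrays, and the other Fzd7 probe set gave 0.03. Fzd1 read 5.57 and 5.72 in ES cells labelled Bmi1 and 5.19 and 5.04 in control ES cells, a difference of 0.54 ± 0.19 (adjusted p = 0.62), with 0.01 by its other probe set, whose value was 0.005 before rounding. Thus the differences of Fzd1, Fzd6 and Fzd7 were each seen in 1 of 2 or 3 probe sets. Among members lower in ES cells labelled Bmi1, Fzd5 differed by -0.37 ± 0.65, Frzb by -0.35 ± 0.64, Wnt3a by -0.27 ± 0.35 and Wnt7a by -0.15 ± 0.18 (adjusted p = 1 for each). The other probe set gave -0.395 for Fzd5 but 0.051 for Frzb, and the others of Wnt7a gave 0.003 and 0.366. Axin2 differed by -0.18 ± 0.25 and Lef1 by 0.36 ± 0.55 (adjusted p = 1 for both), and Lef1 by -0.057 against the untreated array alone.

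**Figure D4:**
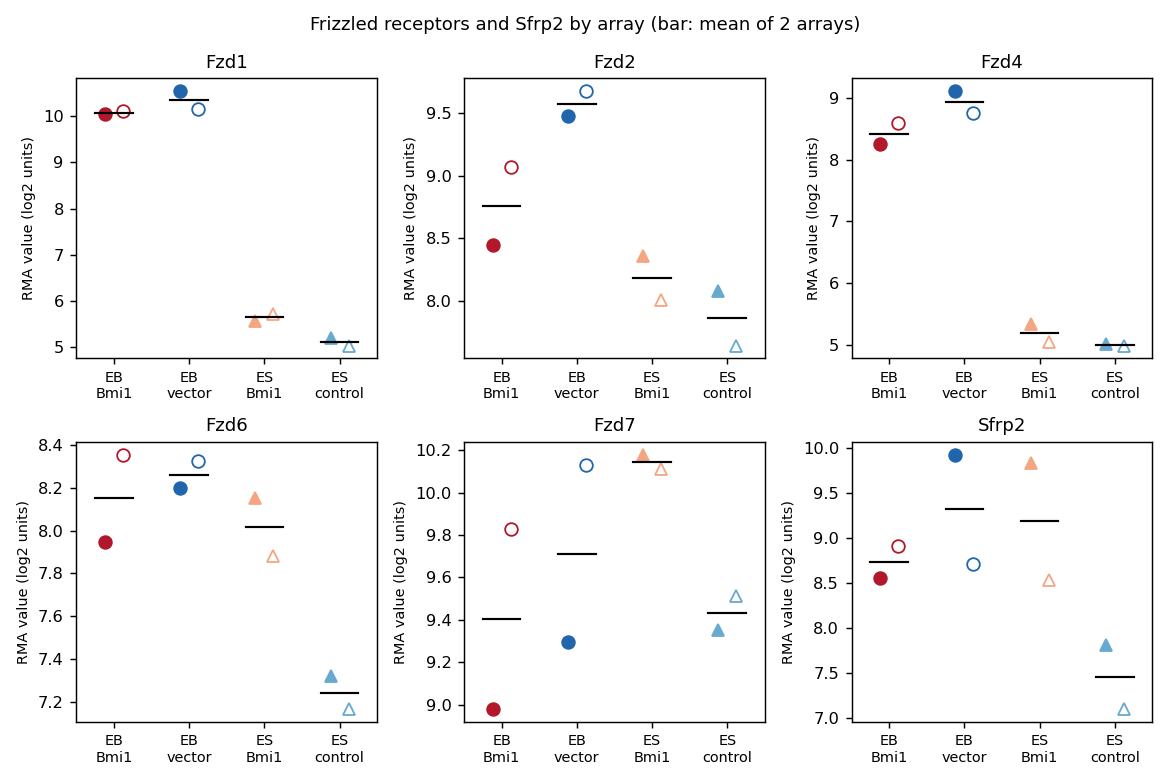
RMA value in log2 units (y axis, scaled per panel and not starting at 0) of 5 Frizzled genes and Sfrp2 in embryoid bodies (circles) and ES cells (triangles) labelled Bmi1 or control, with filled symbols for replicate 1 or the untreated array, open symbols for replicate 2 or the empty vector array, and bars for the mean of 2 arrays. Fzd2 lies at 8.45 and 9.07 in embryoid bodies labelled Bmi1, below both vector arrays, and Fzd7 lies at 10.18 and 10.11 in ES cells labelled Bmi1, above both control arrays.

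Whether the difference between labelled Bmi1 and control depended on stage was tested directly, as the embryoid body difference minus the ES cell difference. Of 31 members 0 were called, against 0% of all genes, and 0 under the block, against 0.824%. An unadjusted p under 0.05 was found for 5 members, Fzd1, Fzd2, Fzd4, Fzd6 and Sfrp2, all negative, against 6.83% of all genes in either direction and 4.81% with a negative difference. Of the 10 Frizzleds, 3 were higher and 7 lower in embryoid bodies labelled Bmi1, against 5548 and 7429 of all 12982 tested genes. In ES cells labelled Bmi1, 8 were higher and 2 lower, against 6630 and 6342 of all tested genes. The difference between stages was negative for 8 of 10 Frizzleds, with a median of -0.75. Over all tested genes it was negative for 7423, with a median of -0.06, and the direction of the Frizzleds was not tested as a group. In ES cells the other probe sets of Fzd1, Fzd6, Fzd7 and Fzd8 gave 0.005 to 0.109. Those of Fzd2, Fzd3 and Fzd4 gave -0.074 to 0.508, and those of Fzd5 and Fzd10 gave -0.395 and -0.172. Sfrp2 differed by -2.31 ± 0.76 (SE, adjusted p = 0.54, and 0.19 with the block) and Fzd2 by -1.14 ± 0.38 (adjusted p = 0.57, and 0.12 with the block).

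The largest positive values were those of Fzd5, at 1.06 ± 0.92, and Wnt3a, at 0.46 ± 0.50 (adjusted p = 1 for both), and both rested on the vector replicates. Without vector replicate 1 the Fzd5 value was -0.093, and without vector replicate 2 it was 2.215 (adjusted p = 0.05), past the threshold before rounding, while Wnt3a gave -0.013 without vector replicate 2. Axin2 gave 0.31 ± 0.35 and Lef1 -0.02 ± 0.78 (adjusted p = 1 for both). The sign for Lef1 turned when 1 of 4 arrays was left out, up to 0.78 without vector replicate 2.

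Replicate arrays of embryoid bodies differed for many Wnt components. The root mean square difference between replicates over the 31 tested members was, in log2 units, 0.58 for embryoid bodies labelled Bmi1 and 0.97 for those with vector, and 0.36 for the ES cell pair labelled Bmi1 and 0.30 for the control pair. Over all tested genes it was 0.51, 0.67, 0.27 and 0.23 in the same order. The replicates labelled Bmi1 were over 1 log2 unit apart for 2 members, Frzb and Wnt5a, against 4.61% of all tested genes, and the vector replicates for 9, against 11.2%. The difference between replicate 2 and replicate 1 had the same sign in both kinds of embryoid body for 25 of 31 members, 13 higher and 12 lower in replicate 2, and for 78.7% of all tested genes. Frzb was 1.48 and 1.83 higher, Wnt5a 1.01 and 1.71, Dkk1 0.74 and 1.37, Lef1 0.61 and 1.60, and Fzd5 0.57 and 2.31 higher in replicate 2 of embryoid bodies labelled Bmi1 and of vector embryoid bodies. Wnt2, Sfrp1 and Dkk3 were lower in replicate 2 in both, by over 1 log2 unit in vector embryoid bodies.

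Differentiation markers moved between the same arrays. The mean of the 7 pluripotency genes was 8.27 in replicate 1 and 9.49 in replicate 2 labelled Bmi1, and 7.77 in vector replicate 1 and 9.93 in vector replicate 2. Primitive streak genes, 4 of them measured, averaged 5.37 and 5.65 in embryoid bodies labelled Bmi1 and 5.37 and 6.78 in vector embryoid bodies. Their part in the spread of the Wnt components was not tested.

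**Figure D5:**
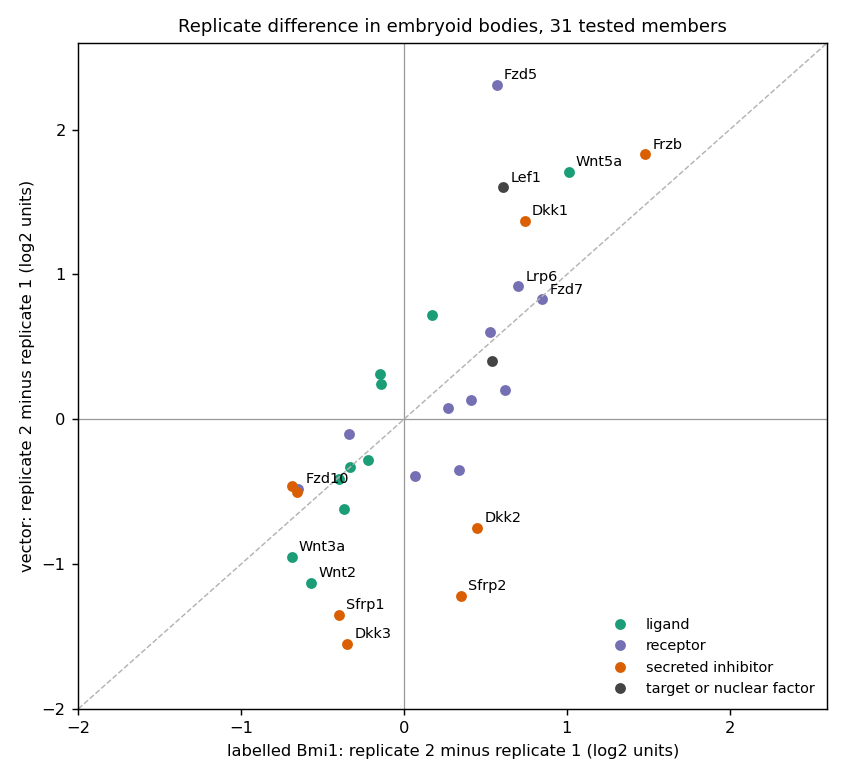
Replicate 2 minus replicate 1 in log2 units for the 31 tested members, in embryoid bodies labelled Bmi1 (x axis) and vector embryoid bodies (y axis), coloured by role, with a dashed line where both are equal. Of the members, 25 share a sign, and Fzd5 at 0.57 and 2.31 and Frzb at 1.48 and 1.83 lie highest.

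Other genes of the pathway were read from a list of 51, of which 49 were measured and 44 tested. Between embryoid bodies labelled Bmi1 and vector embryoid bodies 0 of 44 were called, against 0.139% of all genes, and 1 under the block, against 2.09%, so the count was near that of all genes. That gene was Dvl1, a cytoplasmic relay downstream of Frizzled (0.83 ± 0.19, adjusted p = 0.27, and 0.035 with the block). Rspo3, a secreted enhancer of Wnt reception, read 7.79 and 7.78 in embryoid bodies labelled Bmi1 and 8.55 and 9.36 in vector embryoid bodies, a difference of -1.17 ± 0.28 (adjusted p = 0.29, and 0.05 with the block). In ES cells 0 of 44 were called, against 0.0462% of all genes, and for the difference between stages 0 of 44, against 0%. Wls, the carrier that takes Wnts to the cell surface, read 7.28 and 7.35 in ES cells labelled Bmi1 and 5.45 and 6.37 in control ES cells, a difference of 1.41 ± 0.30 (adjusted p = 0.22).

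Between stages 12 of 44 rose and 16 fell in embryoid bodies labelled Bmi1, and 13 rose and 16 fell in vector embryoid bodies. Over all genes 21.2% rose and 38.0% fell in embryoid bodies labelled Bmi1, and 22.7% rose and 35.8% fell in vector embryoid bodies, so the counts of the list were near those of all genes. Rspo3 rose by 4.18 ± 0.28 (adjusted p = 7.8e-05) in samples labelled Bmi1 and by 5.70 ± 0.28 (adjusted p = 2.6e-05) in vector and control samples. Wls rose by 2.89 ± 0.30 (adjusted p = 0.00037) in samples labelled Bmi1 and by 4.83 ± 0.30 (adjusted p = 5.4e-05) in vector and control samples. The feedback inhibitor Nkd1 rose by 3.49 ± 0.17 (adjusted p = 3.6e-05) in samples labelled Bmi1 and 3.51 ± 0.17 (adjusted p = 2.6e-05) in vector and control samples. The receptor Ror1 and the polarity gene Prickle1 rose by 3.53 and 4.11 in vector embryoid bodies. Genes that fell there included Notum, which removes the lipid from Wnts, by 2.57, Dvl2 by 2.13, Myc by 2.05, Porcn, which adds the lipid, by 1.27 and Ctnnb1, which encodes beta-catenin, by 0.59. Of 9 tested targets and feedback genes, 3 were called higher and 4 lower in vector and control samples, against 22.7% and 35.8% of all genes.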

How the data were processed

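The deposited table holds log2 values, 1 column per array, made by the authors with RMA, per the submitters' processing notes; the version and the arrays processed together are not given in the sources used here. Because the columns fall into 3 sets of near-equal distribution, differences between sets can hold a part that comes from scaling, most of all between stages. Of 45101 probe sets, 64 were array controls and were dropped; of the rest 34945 had 1 gene symbol, 932 had several and 9160 had none.

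A gene was read from the brightest (by mean over all arrays) of its one-symbol probe sets, giving 18193 genes, of which 12982 lay above the array median in at least 2 arrays and were tested. A linear model with 4 states was fitted by lmFit and eBayes of limma 3.58.1 (R 4.3.3) to all 8 arrays, leaving 4 residual degrees of freedom. Two-sided p-values were adjusted over those 12982 genes (Benjamini-Hochberg), calls were made under 0.05, and an SE is that of the fit. A second fit took the replicate number of the 4 embryoid body arrays, which is also their set of like distributions, as a block (3 residual degrees of freedom). Deviations from the group means correlated at r = 0.72 between embryoid body replicates 1 labelled Bmi1 and vector, and at 0.03 and 0.04 with ES cell replicate 1 labelled Bmi1, so the numbers were taken to pair the embryoid body arrays only.

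The members, the lists of other pathway genes and of markers, and the tests were chosen with earlier results of these data known. Named with a test were members called in either fit, the largest differences without overlap (up to 4 in each direction, 2 for the difference between stages) and Axin2 and Lef1; Fzd4, Sfrp4 and other members named beside them, and the other pathway genes, were picked after their values were seen. Alternatives covered the filter, the probe set used, quantile normalization, median centring, the prior, array weights, arrays of 1 stage, replicate blocks over 4 or 6 arrays, each control ES cell array as the sole control and the omission of each array in turn, where a lone array was assumed to vary like the others. Promoter windows came from RefSeq (GRCm38.p6). Precision is limited by how few arrays there are.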

Additional observations from a re-analysis of the deposited data

Results flagged for a closer look

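Fzd1 and Fzd4 were singled out because their arrays were completely separated in opposite directions at the 2 stages. Fzd1 was lower in embryoid bodies labelled Bmi1 (10.04 and 10.11, against 10.54 and 10.16 in vector embryoid bodies) and higher in ES cells labelled Bmi1 (5.57 and 5.72, against 5.19 and 5.04 in control ES cells), and the difference between stages was -0.81 ± 0.27 (SE, limma, adjusted p = 0.54, and 0.13 with the replicate block). The embryoid body difference of Fzd1 was -0.082 without vector replicate 1. Fzd4 was lower in embryoid bodies labelled Bmi1 (8.25 and 8.59, against 9.11 and 8.76 in vector embryoid bodies) and higher in ES cells labelled Bmi1 (5.34 and 5.05, against 5.02 and 4.98 in control ES cells), and the difference between stages was -0.71 ± 0.30 (adjusted p = 0.72, and 0.24 with the replicate block). Neither passed the test, and the same kind of separation was found for 726 of 12982 genes (5.59%).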

How the results depend on the processing

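Of 1340 alternative values for 71 named differences, 1243 kept their direction and their side of the threshold, 39 lost a call, 37 gained one and 21 changed sign. Between embryoid bodies labelled Bmi1 and vector embryoid bodies the count of members called stayed at 0 under every setting except leaving out single arrays, where it ranged from 0 to 1 (Fzd5, without vector replicate 2); the difference between stages gave the same range and gene. In ES cells it was 0 except for 4 with array weights (Fzd1, Fzd6, Fzd7 and Sfrp2, with 641 genes called in all) and 1 with the replicate block over embryoid body arrays (Fzd7). Requiring a value above the 75th percentile lowered the counts between stages to 9 for samples labelled Bmi1 and to 12 for vector and control samples, since fewer genes were tested. The replicate block over embryoid body arrays called 21 members for samples labelled Bmi1 and 24 for vector and control samples, and moved no other count by over 1.5 times. Leaving out single arrays gave 12 to 19 for samples labelled Bmi1 and 18 to 23 for vector and control samples. The counts between stages here are not set beside all genes, so they show only how the calls of members moved. In samples labelled Bmi1 the calls split 14 higher and 2 lower, but 12 and 4 with median centring, which moved the median of all genes to -0.62 from -0.27, and to -0.56 from -0.24 in vector and control samples.

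Changes of sign were as follows, and the cause was not tested. Averaging the probe sets of a gene gave -0.057 for Axin2 in embryoid bodies, 0.43 for Axin2 and -0.465 for Lrp6 between vector embryoid bodies and control ES cells, and -0.12 for Fzd3 between stages labelled Bmi1, where median centring gave -0.14 for Axin2. For Lef1, quantile normalization gave 0.18 and the untreated array alone 0.40 for the difference between stages, and the untreated array alone -0.057 in ES cells. Leaving out single arrays gave ranges across 0 for Axin2 (-0.063 to 0.47 between stages labelled Bmi1, -0.14 to 0.39 in embryoid bodies, -0.30 to 0.10 between vector and control stages) and for Lef1 (-0.82 to 0.78 for the difference between stages, -0.46 to 1.14 in embryoid bodies, -0.057 to 0.78 in ES cells). The same held for Fzd5 (-0.093 to 2.215 for the difference between stages) and Wnt3a (-0.013 to 0.94 for that difference, -0.92 to 0.027 between vector and control stages). Signal near the bottom of the range, as for Dkk2 in ES cells and the 12 dim members, limits what can be read there.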

Other observations

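Some dim members also passed the test between stages when no filter was used. Wif1, a secreted Wnt binder, read 3.57 and 5.05 in embryoid bodies labelled Bmi1, 3.90 and 5.54 in vector embryoid bodies, 3.79 and 3.07 in ES cells labelled Bmi1, and 2.80 and 2.88 in control ES cells, all below the array medians. Its difference was 0.88 ± 0.61 (SE, limma, adjusted p = 0.28) in samples labelled Bmi1 and 1.88 ± 0.61 (adjusted p = 0.037) in vector and control samples. Wnt10a differed by -0.70 ± 0.25 (adjusted p = 0.047) in samples labelled Bmi1 and by -0.81 ± 0.25 (adjusted p = 0.028) in vector and control samples. Wnt5b gave 0.16 ± 0.24 (adjusted p = 0.61) in samples labelled Bmi1, where its other probe set differed by 1.58, and 0.83 ± 0.24 (adjusted p = 0.024) in vector and control samples, where its other probe set differed by 1.92. Wnt2b gave 0.70 ± 0.18 (adjusted p = 0.013) in samples labelled Bmi1 and 0.35 ± 0.18 (adjusted p = 0.14) in vector and control samples. Wnt3 gave -0.72 ± 0.25 (adjusted p = 0.047) in samples labelled Bmi1 and -0.59 ± 0.25 (adjusted p = 0.088) in vector and control samples.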
